A study of Mus musculus with 30 samples.

Results

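The genes described here are the protein-coding neighbours of Terc, the gene for the RNA template of telomerase, on mouse chromosome 3. They were chosen as the protein-coding genes of GENCODE M21 that start within 5 Mb of the Terc start and average at least 1 TPM (transcript abundance corrected for length and library size) over 30 libraries. Ctsk, Ctss and genes whose symbols start with Hist were left out by name. Of the 45706 genes in the deposited tables, 207 protein-coding genes lay in the window, 12 were left out by name (10 Hist genes, Ctsk and Ctss), 113 averaged less than 1 TPM and 82 remained. Of the 113, 43 were at 0 in all libraries and 16 reached 1 TPM in at least 1 library.

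The level threshold used the mean of all 30 libraries and no comparison between groups. Just below it stood Cd101 (0.935 TPM), Ankrd34a (0.768 TPM) and Itga10 (0.764 TPM), and just above it Gm9774 (1.01 TPM), Crct1 (1.84 TPM) and Fmo5 (2.06 TPM). The outermost genes inside the window were Gm9774, 3.99 Mb towards lower coordinates, and Igsf3, 4.96 Mb towards higher coordinates. The nearest expressed gene outside it at lower coordinates was S100a9 (5.72 Mb). Of the 82 genes, 53 lay at lower and 29 at higher coordinates than Terc, 74 were at 1 TPM or more in every library, and 5 (Crct1, Gm9774, Igsf3, Lce1f and Lce1h) had a group whose mean was below 1 TPM.

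The libraries are bulk RNA-seq of osteoclast cultures of C57BL/6J mice, in which marrow macrophages were placed on bone slices and given the cytokines M-CSF (25 ng/ml) and RANKL (100 ng/ml) in every group. Cells were harvested when large multinucleated cells had formed or, for part of the wild-type cultures, after 2 days. There were 10 groups of 3 libraries, and each group is 1 genotype, age, harvest and title marker. The Terc-/- groups, all harvested as large cells, were 6-month and 1-month mice without a marker, and 6-month and 1-month libraries whose titles carry the marker 519. The wild-type groups were large cells of 20-month, 6-month and 1-month mice, large cells of 1-month mice whose titles carry the marker gaiwei, and 2-day cultures of 20-month and 6-month mice. The labels explain neither marker, and they do not say how the allele was made, which generation was used or whether replicates came from separate mice. P-values therefore measure only the spread between these libraries, and in bulk RNA fewer cells of a type and less RNA per cell cannot be told apart.

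Telomerase adds telomere repeats to chromosome ends by copying a short template in the Terc RNA with the reverse transcriptase Tert. A targeted allele is made in embryonic stem cells, and the DNA around it is inherited with it through later crosses, so genes beside a targeted locus can differ between knockout and control mice whatever the target gene does. A deletion or its selection cassette can also change the expression of nearby genes. Osteoclasts are the bone-resorbing cells that form when macrophage precursors fuse. The interval holds the late cornified envelope and S100 genes of the epidermal differentiation complex, and many housekeeping genes.

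The Terc gene is annotated at chr3:96414437-96414859 (GRCm38), on the minus strand, as a noncoding gene of 423 bases. The first 70 bases of its RNA (GENCODE M21, written as DNA) are shown because they hold the template, which is in capitals at positions 28 to 36 counted from the 5′ end.
Terc: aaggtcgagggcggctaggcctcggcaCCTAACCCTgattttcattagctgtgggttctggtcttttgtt
Promoter windows of 250 bases before to 50 bases after the start (RefSeq, GRCm38.p6) matched 68 of the 82 genes with 76 windows. The first shown is that of Adamtsl4, the gene past the threshold in the marked comparison, at chr3:95687868-95688167 on the minus strand, with the GC box motif GGGCGG in capitals on either strand.
Adamtsl4: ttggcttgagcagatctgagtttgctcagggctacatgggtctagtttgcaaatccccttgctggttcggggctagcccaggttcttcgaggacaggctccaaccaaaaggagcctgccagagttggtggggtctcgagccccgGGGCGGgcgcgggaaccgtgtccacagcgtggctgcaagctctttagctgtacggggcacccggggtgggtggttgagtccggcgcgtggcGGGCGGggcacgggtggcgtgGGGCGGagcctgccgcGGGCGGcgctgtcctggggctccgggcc
GGGCGG or its complement was found in 55.3% of the 76 windows and in 35.7% of all 32851 windows of the table. The Lce1g (chr3:92752289-92752588, minus strand) and Lce1h (chr3:92765016-92765315, minus strand) windows are shown because these neighbours had the widest level ranges, and the TATA-like letters ATAAAA are in capitals, starting 29 bases before the start in both.
Lce1g: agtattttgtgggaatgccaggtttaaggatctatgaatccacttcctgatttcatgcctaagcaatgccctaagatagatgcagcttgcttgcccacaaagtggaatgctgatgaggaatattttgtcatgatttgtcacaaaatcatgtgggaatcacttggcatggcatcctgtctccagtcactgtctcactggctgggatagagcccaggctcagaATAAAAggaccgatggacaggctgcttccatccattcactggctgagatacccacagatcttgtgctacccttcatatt
Lce1h: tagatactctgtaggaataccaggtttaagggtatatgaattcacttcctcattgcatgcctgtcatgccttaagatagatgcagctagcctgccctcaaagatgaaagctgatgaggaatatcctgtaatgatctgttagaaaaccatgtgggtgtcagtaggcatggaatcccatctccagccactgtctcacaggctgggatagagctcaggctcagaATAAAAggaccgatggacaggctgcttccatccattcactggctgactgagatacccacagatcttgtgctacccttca
ATAAAA, on either strand, was found in 8 of the 76 windows and in 18.5% of all windows, and 259 of 300 aligned bases (86.3%) were identical between Lce1g and Lce1h. The Rnf115 window (chr3:96727361-96727660, plus strand) is shown because Polr3c starts in it on the other strand, and the 173 bases from one RefSeq start to the other are in capitals.
Rnf115: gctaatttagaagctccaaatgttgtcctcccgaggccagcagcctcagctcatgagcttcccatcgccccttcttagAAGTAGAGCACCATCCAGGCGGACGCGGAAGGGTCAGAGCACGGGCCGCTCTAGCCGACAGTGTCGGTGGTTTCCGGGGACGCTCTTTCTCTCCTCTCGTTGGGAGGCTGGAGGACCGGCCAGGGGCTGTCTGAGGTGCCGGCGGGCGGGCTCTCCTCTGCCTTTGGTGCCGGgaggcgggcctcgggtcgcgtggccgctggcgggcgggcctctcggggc
These matches describe letters and say nothing of the factors that may bind them.

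Terc itself was at 0 TPM in all 12 Terc-/- libraries. Of the 18 wild-type libraries, 3 had a value above 0, which were 1.13 TPM in a 1-month, 0.516 TPM in a 20-month and 0.341 TPM in a 6-month large-cell library. Because 15 wild-type libraries were also listed at 0, Terc did not check the genotype labels. The depth of the libraries is unknown, since only TPM were used.

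Features of the libraries bear on every genotype comparison. Wild-type 6-month large-cell replicate 2 stood apart, with a mean correlation of 0.910 to the other 2 libraries of its group, against 0.933 and 0.952 for those 2, over all tested genes. The unmarked 1-month wild-type libraries had 46.6 to 84.1 TPM of Xist and no more than 0.0222 TPM of the Y-linked Ddx3y, while the unmarked 1-month Terc-/- libraries had at most 0.00835 TPM of Xist and 14.0 to 22.1 TPM of Ddx3y. Genotype and sex pattern therefore cannot be told apart in that comparison. In the marked 1-month comparison all Terc-/- libraries carry 519 and all wild-type ones gaiwei, so genotype and marker cannot be told apart there. The limit of each pair extends to the means and differences that use it. The summed level of 8 osteoclast markers was 4531 to 11096 TPM in 6-month Terc-/- and 9328 to 14411 TPM in 6-month wild-type large cells, but 644 to 678 TPM in 519-marked 1-month Terc-/- and 865 to 1280 TPM in gaiwei-marked 1-month wild-type libraries. Thus the marked libraries held little of the osteoclast programme their labels name, apart from Mmp9. In 519-marked 1-month libraries 4 of the 8 markers averaged at least 1 TPM. Mmp9 averaged 484 TPM in 519-marked and 2010 TPM in unmarked 1-month Terc-/- cells, and 860 TPM in gaiwei-marked and 1311 TPM in unmarked 1-month wild-type cells. In 6-month Terc-/- cells it averaged 1430 TPM with the marker and 1517 TPM without. Summed markers of neutrophils (6 genes), B cells (4 genes) and T and NK cells (3 genes) were at most 8.06, 1.16 and 0.101 TPM in any library of the 3 genotype comparisons.

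Compared by genotype at 6 months, 28 of the 82 genes passed an adjusted p of 0.05 (limma, Benjamini-Hochberg over the 12614 genes tested), 18 higher and 10 lower in Terc-/- cells. The genes beside Terc were called in 34.1% of cases, against 28.7% of all genes tested. That excess depended on single libraries. Without wild-type replicate 2 the share was 25.6% (21 genes), against 31.4% of all genes, with 16 of the 28 calls kept, and without Terc-/- replicate 1 it was 18.3% against 19.1%. Without wild-type replicate 1 it was 50% (41 genes), against 41.9% of all genes. When only the 2 groups compared were fitted, 0 of the 82 passed (0.721% of all genes did), and 38 of the 82 had an unadjusted p under 0.05 in the fit of all groups.

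At 1 month without markers 15 of the 82 passed, 4 higher and 11 lower in Terc-/- cells, or 18.3% against 30.9% of all genes. In the marked 1-month comparison 1 of the 82 passed, lower in Terc-/- cells, or 1.22% against 3.42% of all genes (1.55% higher, 1.87% lower). In the mean of the 3 comparisons, which share no library, 25 passed (14 higher, 11 lower), or 30.5% against 38.1% of all genes. The median absolute log2 difference was 0.37 for the 82 genes and 0.31 for all genes at 6 months, 0.24 against 0.31 at 1 month, and 0.13 against 0.14 in the marked comparison. All groups share 1 estimate of the spread, so wild-type 6-month replicate 2 also bears on comparisons it is not part of. Without it, a setting added after the values were seen, 24 of the 82 passed at 1 month (29.3% against 42% of all genes), 4 in the marked comparison (4.88% against 5.7%) and 28 in the mean (34.1% against 48.6%). The mean of the 6-month and marked comparisons, which leaves out the pair that differs in sex pattern, called 15 of the 82 (8 higher, 7 lower), or 18.3% against 19.2% of all genes (10.6% higher, 8.67% lower).

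The genotype difference itself was compared between settings. For the 6-month difference minus the 1-month difference 5 of the 82 passed (3 higher, 2 lower), or 6.1% against 3.74% of all genes (2.93% higher, 0.817% lower). For the marked minus the unmarked difference at 1 month 7 passed (4 higher, 3 lower), or 8.54% against 10.7% of all genes (5.63% higher, 5.03% lower).

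**Figure D1:**
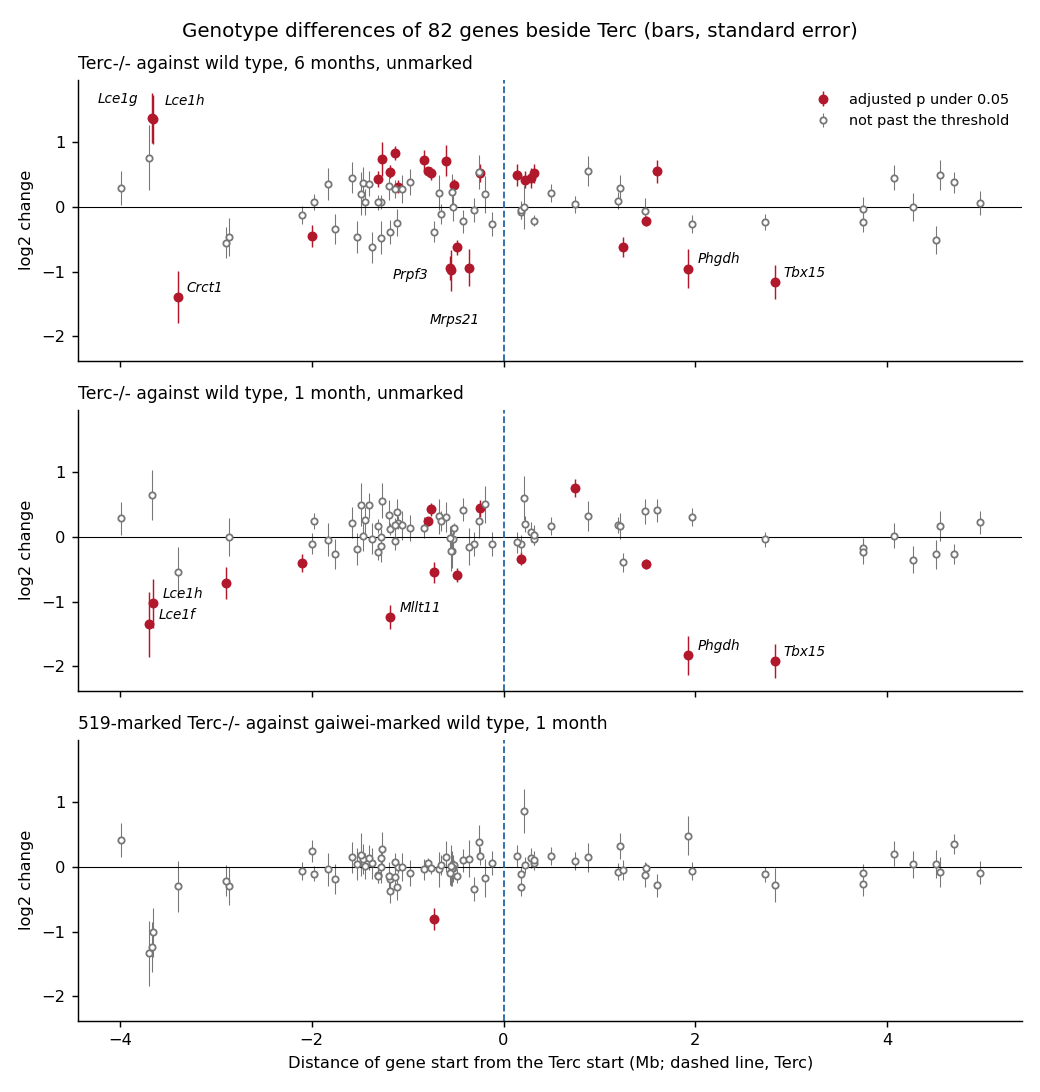
Log2 difference with standard error (y axis) of the 82 genes against the distance of their start from the Terc start in Mb (x axis), in the 3 genotype comparisons, each Terc-/- minus wild type (3 libraries a group). Filled red points passed an adjusted p of 0.05, which 28, 15 and 1 genes did from top to bottom, and they lie on both sides of Terc and above and below 0.

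By position, 19 of the 53 genes at lower coordinates and 9 of the 29 at higher coordinates were called at 6 months, and 10 of 53 and 5 of 29 at 1 month. Within 0.5 Mb of Terc 41.2% of 17 genes were called at 6 months, 17.6% at 1 month and 0 in the marked comparison. From 0.5 to 1 Mb the shares were 46.7%, 26.7% and 6.67% of 15 genes, from 1 to 2 Mb 29%, 9.68% and 0 of 31 genes, and from 2 to 5 Mb 26.3%, 26.3% and 0 of 19 genes. Protein-coding genes of the other autosomes were called in 29.7%, 31.8% and 3.54% of cases, and those 10 to 20 Mb from Terc in 47.8%, 44.8% and 2.99%. The shares were 25.4%, 26.2% and 6.15% from 5 to 10 Mb, and 27.6%, 33.8% and 2.76% over 20 Mb away. In the mean of the 3 comparisons the bins inside the window had 23.5%, 60%, 29% and 15.8% from the nearest outward, against 39.2% on the other autosomes. Bins of distance were set after the values were seen, 3 of the 4 bins inside the window hold fewer than 20 genes, and the shares were not tested against each other. Among 21 chromosomes the share of tested genes called on chromosome 3 ranked 8th at 6 months, 13th at 1 month and 11th in the marked comparison, counted from the highest.

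**Figure D2:**
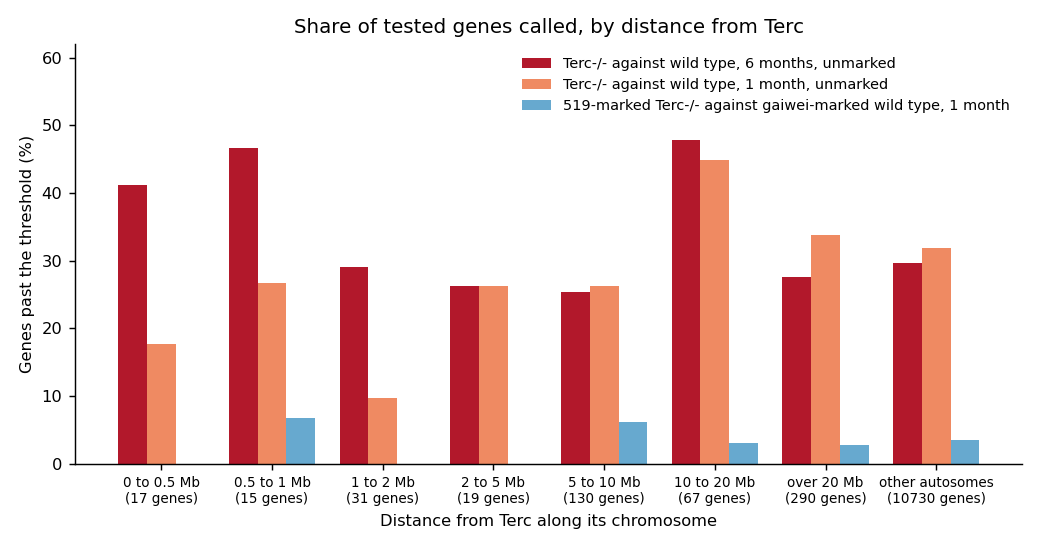
Share of tested protein-coding genes with an adjusted p under 0.05 (y axis, percent) by distance from Terc in Mb and on the other autosomes (x axis, with gene numbers), in the 3 genotype comparisons of Terc-/- with wild type. The bars within 1 Mb of Terc reach 41.2% and 46.7% at 6 months, and the bin from 10 to 20 Mb reaches 47.8%. The bins from 5 to 10 Mb and over 20 Mb reach 25.4% and 27.6% there. At 1 month the bars within 1 Mb are 17.6% and 26.7%, below the 31.8% of the other autosomes.

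No gene separated the genotypes in every large-cell library. In scaled values, 0 of the 82 had all 12 Terc-/- libraries above, or all below, the 12 wild-type large-cell libraries, as did 0.135% of all tested genes (17). With median-ratio scaling 1 gene did, Sf3b4, a subunit of the splicing factor SF3B, at 58.4 to 73.2 against 32.7 to 58.3 scaled TPM. Over the unmarked libraries alone, 3 of the 82 had no overlap (3.66%), against 8.63% of all tested genes. These were Cers2, a ceramide synthase (158.7 to 175 scaled TPM in 6 Terc-/- against 102 to 158.2 in 9 wild-type libraries), Mindy1, a deubiquitinase (39.4 to 54.1 against 23.9 to 38.8), and Sec22b, a vesicle-fusion protein of the secretory pathway (43.4 to 50.4 against 51.9 to 63.3). In TPM as deposited all 3 overlapped, and 2 others of the 82 did not (2.44%, against 8.63% of all tested genes), namely Sf3b4 and Aph1a, a subunit of gamma-secretase. Aph1a had 71.2 to 83.7 TPM in Terc-/- and 43.7 to 70.2 TPM in wild-type libraries, and Sf3b4 61.97 to 74.4 against 22.4 to 61.84 TPM.

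Same-direction calls at 6 months and 1 month were made for 7 of the 82 genes (8.54%), against 15.5% of all genes. These 2 comparisons share no library. Sf3b4, Ensa and Mcl1 were higher and Anp32e, Sec22b, Phgdh and Tbx15 lower in Terc-/- cells. None of the 82 was called the same way in all 3 comparisons with all libraries, as 0.634% of all genes (80) were. Without wild-type 6-month replicate 2, Rbm8a was (1.22% of the 82, against 1.43% of all genes). With all libraries, Lce1h was called in opposite ways at 6 months and 1 month (1.22% of the 82, against 0.428% of all genes). The same sign in all 3, called or not, was seen for 48.8% of the 82 and 43.5% of all genes.

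Rbm8a, a core protein of the exon junction complex that marks spliced mRNA, starts 215 kb from Terc and is described because of that exception, after its values were seen. It had 51.9, 61.4 and 53.2 TPM in 6-month Terc-/- and 32.7, 103 and 37.6 TPM in 6-month wild-type cells. The 1-month values were 53.5, 54.7 and 50.5 TPM in Terc-/- and 42.5, 32.7 and 32.4 TPM in wild-type cells, and the marked ones 55.0, 53.0 and 52.6 TPM in Terc-/- and 27.7, 29.99 and 26.6 TPM in wild-type cells. Only the 103 TPM of wild-type replicate 2 at 6 months lay within or above the Terc-/- values of its own pair. With all libraries no genotype comparison passed, at log2 0.00 ± 0.34 (adjusted p = 0.998, limma) at 6 months, 0.59 ± 0.34 (adjusted p = 0.196) at 1 month, 0.86 ± 0.34 (adjusted p = 0.220) in marked cells and 0.48 ± 0.20 (adjusted p = 0.0543) in the mean. Without that library the differences were 0.71 ± 0.17 (adjusted p = 0.00229), 0.59 ± 0.15 (adjusted p = 0.00273), 0.87 ± 0.15 (adjusted p = 0.000648) and 0.72 ± 0.09 (adjusted p = 1.01e-06) in the same order. The 519-marked 6-month Terc-/- libraries had 43.5, 39.7 and 40.4 TPM of Rbm8a, which overlap both unmarked wild-type groups of the 1- and 6-month pairs.

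Whether groups overlap is said of TPM as deposited. In scaled values Sf3b4, Lce1g, Lce1h and Tnfaip8l2 overlapped at 6 months, as did Ensa, Lce1h and Rbm8a at 1 month. Anp32e and Tbx15 did not overlap at 6 months in scaled values, nor did Sf3b4 in marked cells. Sf3b4 is the nearest to Terc of the 7 genes above (chr3:96172332-96177564, plus strand, 243 kb away). At 6 months it had 61.97, 63.7 and 74.4 TPM in Terc-/- and 53.1, 22.4 and 61.8 TPM in wild-type cells. At 1 month it had 69.7, 70.4 and 73.0 TPM in Terc-/- and 52.8, 54.1 and 53.9 TPM in wild-type cells. Terc-/- libraries were thus the higher ones in both pairs, and the low wild-type value of 22.4 TPM is that of replicate 2. Its log2 difference was 0.52 ± 0.14 (SE, adjusted p = 0.00636, limma) at 6 months, or 0.28 ± 0.11 (adjusted p = 0.0604) without that library, and 0.44 ± 0.14 (adjusted p = 0.0176) at 1 month. The 1-month call was lost with values as deposited and in 3 of 6 fits that left out 1 library of the pair. With the markers, Sf3b4 had 49.2, 46.8 and 44.4 TPM in 519-marked Terc-/- and 39.0, 35.9 and 45.9 TPM in gaiwei-marked wild-type cells, which overlap (log2 0.17 ± 0.14, adjusted p = 0.754). Scaled, these marked groups lay apart, at 59.4 to 65.6 in Terc-/- and 54.7 to 56.8 in wild-type cells.

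Ensa, an inhibitor of the phosphatase PP2A in mitosis, lies at chr3:95624993-95632102. It had 81.2, 78.4 and 75.2 TPM in 6-month Terc-/- and 62.8, 34.5 and 52.3 TPM in 6-month wild-type cells (log2 0.55 ± 0.07, adjusted p = 6.93e-06, limma), without overlap. The 1-month values were 83.1, 80.6 and 79.5 TPM in Terc-/- and 63.6, 71.0 and 77.3 TPM in wild-type cells, again apart but by less (log2 0.24 ± 0.07, adjusted p = 0.0151). That 1-month call was lost with values as deposited and in 4 of 6 fits that left out 1 library. Marked cells had 73.4, 69.2 and 77.9 TPM of Ensa in Terc-/- and 66.1, 62.2 and 76.5 TPM in wild type, which overlap (log2 0.06, adjusted p = 0.911). Its neighbour Mcl1, a survival factor of the Bcl2 family, had 324, 315 and 247 TPM in 6-month Terc-/- and 240, 150.2 and 178 TPM in 6-month wild-type cells (log2 0.52 ± 0.10, adjusted p = 0.000456). The 1-month values of Mcl1 were 339, 320.3 and 332 TPM in Terc-/- and 237, 253 and 265 TPM in wild-type cells (log2 0.43 ± 0.10, adjusted p = 0.00223), but in marked cells its difference was -0.01 ± 0.10. For both genes, the 6-month call held without wild-type replicate 2, at log2 0.51 for Ensa and 0.58 (0.575) for Mcl1.

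Anp32e, a chaperone that removes the histone variant H2A.Z from chromatin, lies at chr3:95929246-95947390. It had 55.9, 51.4 and 47.2 TPM in 6-month Terc-/- and 94.4, 51.1 and 79.5 TPM in 6-month wild-type cells, where only replicate 2 overlaps (log2 -0.63 ± 0.11, adjusted p = 0.000210, limma). The 1-month values were 42.6, 42.2 and 51.9 TPM in Terc-/- and 61.2, 79.1 and 72.9 TPM in wild-type cells, with no overlap (log2 -0.59 ± 0.11, adjusted p = 0.000322). In marked cells Anp32e had 27.8, 29.5 and 33.8 TPM in Terc-/- and 31.8, 24.8 and 42.8 TPM in wild-type cells, which overlap. Sec22b differed by less, at log2 -0.22 ± 0.07 (adjusted p = 0.0292) at 6 months and -0.42 ± 0.07 (adjusted p = 0.000154) at 1 month, and by -0.01 ± 0.07 in marked cells.

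Adamtsl4, a secreted glycoprotein of the fibrillin microfibril matrix whose promoter is shown above, was the 1 gene called in the marked comparison. It had 2.82, 2.22 and 2.93 TPM in 519-marked Terc-/- and 4.18, 4.78 and 6.14 TPM in gaiwei-marked wild-type cells, without overlap (log2 -0.80 ± 0.17, adjusted p = 0.00507, limma), and with values as deposited that call was lost (log2 -0.71). Unmarked 1-month cells had 1.66, 2.34 and 3.09 TPM in Terc-/- and 3.21, 4.55 and 4.26 TPM in wild type, also apart (log2 -0.55 ± 0.17, adjusted p = 0.0141). At 6 months the groups overlapped, at 3.17, 4.93 and 6.16 TPM in Terc-/- and 8.002, 4.63 and 5.14 TPM in wild-type cells (log2 -0.38 ± 0.17, adjusted p = 0.0857). Adamtsl4 also differed with the marker, at 10.4, 11.4 and 10.8 TPM in 519-marked 6-month Terc-/- cells (log2 1.36 ± 0.17 against unmarked ones, adjusted p = 8.09e-07).

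The largest decreases at 1 month were those of Tbx15, a transcription factor of mesenchymal development (chr3:99240381-99354259), and Phgdh, the first enzyme of serine synthesis (chr3:98313170-98339990). Tbx15 had 2.58, 2.68 and 5.18 TPM in 1-month Terc-/- and 10.1, 20.7 and 19.03 TPM in 1-month wild-type cells (log2 -1.92 ± 0.26, adjusted p = 8.39e-06, limma), and Phgdh had 11.9, 15.6 and 25.7 TPM in Terc-/- and 50.3, 75.2 and 69.8 TPM in wild-type cells there (log2 -1.83 ± 0.30, adjusted p = 7.31e-05). Neither gene overlapped between these groups. At 6 months Tbx15 had 3.81, 8.14 and 14.2 TPM in Terc-/- and 18.8, 12.1 and 21.6 TPM in wild-type cells (log2 -1.16 ± 0.26, adjusted p = 0.00188), with 1 Terc-/- library above the lowest wild-type one. Phgdh at 6 months was -0.96 ± 0.30 (adjusted p = 0.0207), and -0.79 ± 0.33 (adjusted p = 0.0744) without wild-type replicate 2. In marked cells Tbx15 had 1.81, 2.53 and 2.41 TPM in Terc-/- and 2.91, 2.23 and 3.24 TPM in wild type, and Phgdh had 5.83, 7.87 and 7.13 TPM in Terc-/- and 4.73, 3.73 and 5.39 TPM in wild type. Neither passed, and the Phgdh values lay apart with Terc-/- the higher.

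Markers of stromal cells differed between these groups too, but not all in 1 direction. The summed level of 5 stromal genes (Col1a1, Col1a2, Col3a1, Lum and Dcn) was 88.5 to 158 TPM in 1-month Terc-/- and 476 to 1921 TPM in 1-month wild-type cells, 221 to 725 TPM in 6-month Terc-/- and 540 to 914 TPM in 6-month wild-type cells, and 74.1 to 89.9 TPM in 519-marked Terc-/- and 168 to 285 TPM in gaiwei-marked wild-type cells. The 3 collagens averaged lower in Terc-/- cells in each pair, as for Col1a1 with 51.3 against 515 TPM at 1 month, 192 against 335 TPM at 6 months and 16.7 against 27.5 TPM in marked cells. Dcn, the proteoglycan decorin, went the other way in unmarked cells, with 23.0 TPM in Terc-/- against 7.48 TPM in wild type at 1 month and 80.8 against 1.74 TPM at 6 months, and was lower in marked Terc-/- cells, with 32.7 against 132 TPM. Lum averaged 0.188 TPM in Terc-/- against 0.0470 TPM in wild type at 1 month, 0.567 against 0.0482 TPM at 6 months and 0.269 against 1.498 TPM in marked cells. The part of stromal cells in the Tbx15, Phgdh and Adamtsl4 differences was not tested.

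**Figure D3:**
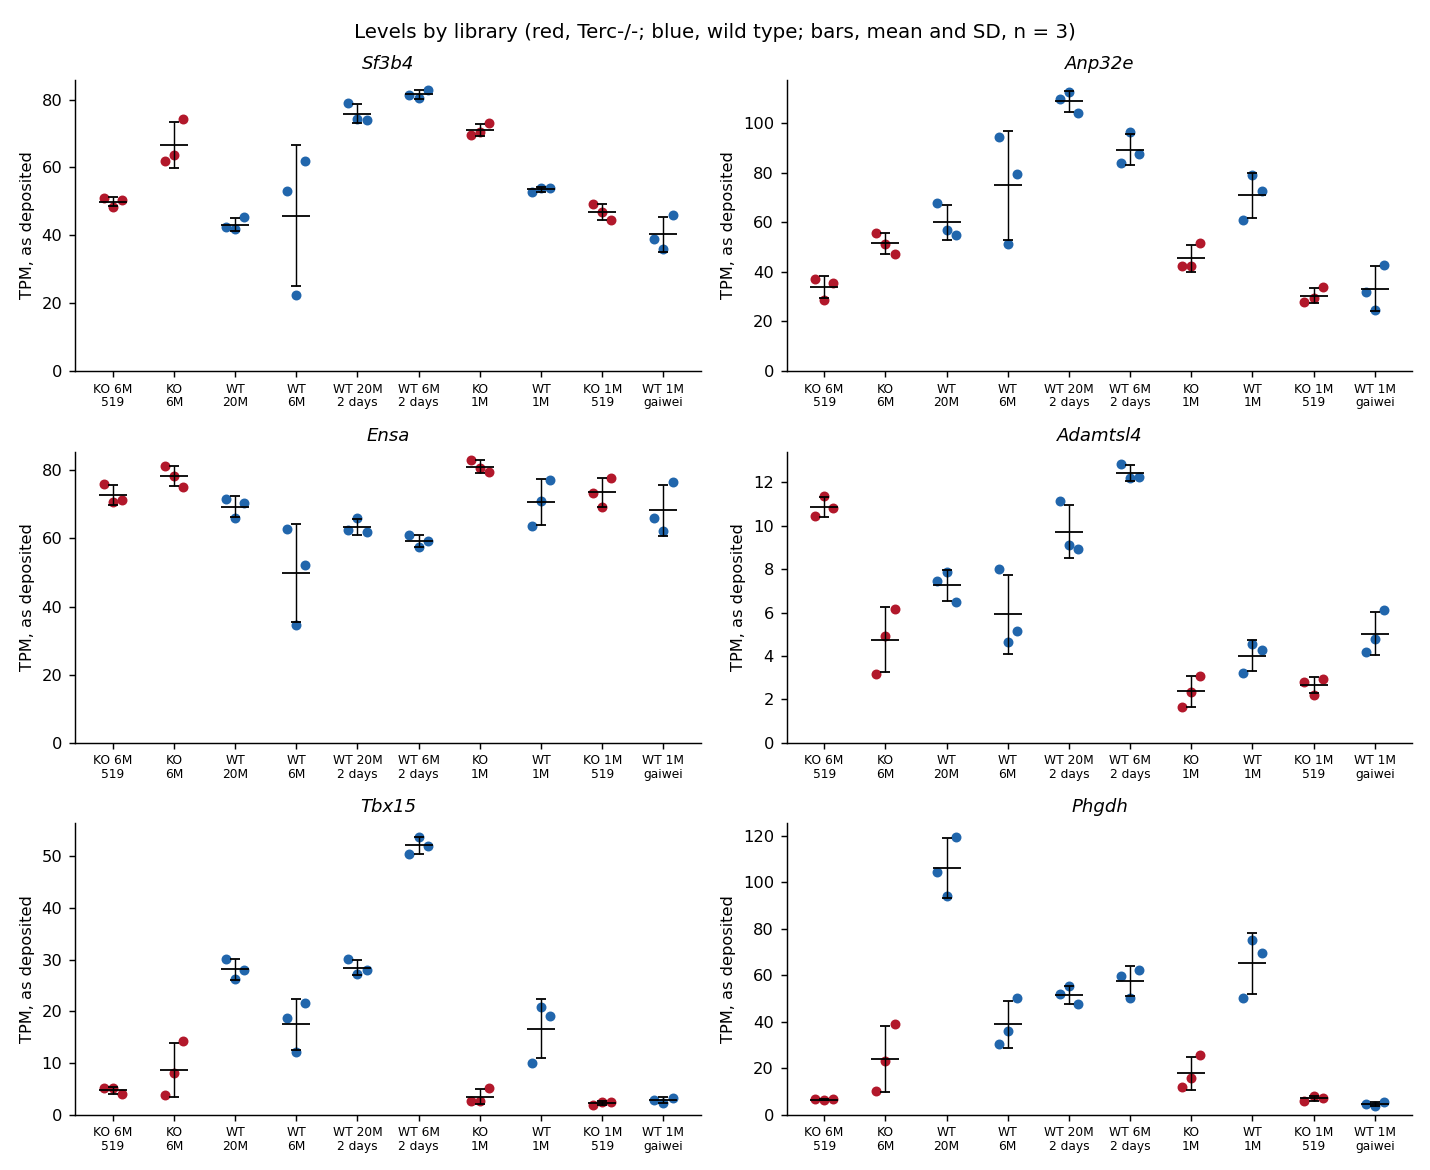
Deposited TPM (y axis) of 6 genes in the 30 libraries by group (x axis), with points for libraries, Terc-/- (KO) in red and wild type (WT) in blue, and black bars for the mean and SD (n = 3). Wild-type 6-month large cells spread the most for Sf3b4, Anp32e and Ensa, and Tbx15 spans 1.81 TPM in a 519-marked 1-month library to 53.8 TPM in a 2-day 6-month one.

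Late cornified envelope genes, which encode barrier proteins of skin, gave the least even values. Lce1h had 8.20, 12.9 and 32.1 TPM in 6-month Terc-/- and 4.33, 6.61 and 3.83 TPM in 6-month wild-type cells, without overlap (log2 1.35 ± 0.38, adjusted p = 0.00953, limma). At 1 month it had 1.39, 0.804 and 2.95 TPM in Terc-/- and 4.51, 5.90 and 3.06 TPM in wild-type cells, apart the other way (log2 -1.03 ± 0.38, adjusted p = 0.0407), a call lost in 4 of 6 fits that left out 1 library. Lce1g was called higher at 6 months (1.37 ± 0.39), while in marked cells it had 12.8, 13.5 and 18.7 TPM in Terc-/- and 32.7, 37.8 and 33.9 TPM in wild type, apart the other way without a call (-1.24 ± 0.39, adjusted p = 0.0882, limma). Lce1f was called lower at 1 month (-1.35 ± 0.50). Across ages in Terc-/- cells, 6 months against 1 month, Lce1h differed by 2.64 ± 0.38 and Lce1f by 2.21 ± 0.50. The highest of these 6-month values were those of Terc-/- replicate 4, at 31.8 scaled TPM for Lce1h and 13.0 for Lce1f. The 6-month genotype call of Lce1h was lost without that library. These paralogs are related in sequence, and how the counting treated reads that match more than 1 of them is not known, so their separate values are uncertain.

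Elsewhere in the interval the genes are described by role, with lists chosen by function. In the mean of the 3 comparisons the list of RNA splicing and processing had 2 of 9 genes higher (Sf3b4 and Rprd2, a regulator of RNA polymerase II) and 1 lower (Prpf3, a factor of the U4/U6 complex), with a median of -0.06. Chromatin and transcription factors had 2 of 11 higher (Zfp687 and Bcl9, a cofactor of beta-catenin) and 1 lower (Anp32e), with a median of 0.15. Of 9 trafficking genes 2 were higher (Golph3l and Cdc42se1) and 1 lower (Sec22b), and of 7 metabolic enzymes 2 were higher (Acp6, a lysophosphatidic acid phosphatase, and Cers2) and 1 lower (Phgdh). Survival and signalling genes had 2 of 4 higher (Mcl1 and Aph1a) and 1 lower (Prkab2, a subunit of the energy sensor AMPK). Of 5 immune genes 1 was higher (Tnfaip8l2, a brake on innate signalling), of 2 S100 genes 1 was lower (S100a11), of 3 matrix genes 1 was lower (Adamtsl4), and none passed among 5 mitochondrial and 2 proteasome genes. Of all genes, 19.2% passed higher and 18.9% lower in that comparison, with a median of 0.00. In fits that left out 1 of the 18 libraries, the mean call was lost 9 times for Bcl9, 8 for Cdc42se1, 7 for Rprd2 and 4 for Zfp687, and all 4 were lost with values as deposited.

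Tnfaip8l2 had the highest called difference in the mean, at 0.53 ± 0.15 (adjusted p = 0.00853, limma), with 77.3, 83.1 and 74.1 TPM in 6-month Terc-/- and 35.9, 62.4 and 33.0 TPM in 6-month wild-type cells. The 6 libraries do not overlap as deposited, and the highest wild-type value is again that of replicate 2. The 6-month call (0.74, adjusted p = 0.0378) was lost in 5 of 6 fits that left out 1 library, with differences of 0.47 to 1.23 (1.23 without replicate 2, where it passed), and the call in the mean was kept throughout. Mllt11, a small protein linked to leukaemic fusions, was lower by -0.67 ± 0.11 in the mean, with 13.0, 11.8 and 22.0 TPM in 1-month Terc-/- and 30.1, 41.5 and 43.3 TPM in 1-month wild-type cells. Crct1, a cornified envelope protein, was also lower in the mean, at -0.75 ± 0.23. It had 0 to 2.72 TPM in the unmarked Terc-/- libraries of both ages and 0.176 to 12.3 TPM in the unmarked wild-type large-cell libraries of all ages. The 6-month wild-type libraries had 2.34, 17.8 and 5.51 scaled TPM, where 17.8 is replicate 2. The 6-month call of Crct1 (-1.39) was lost without that library, and its call in the mean was kept.

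The genes closest to Terc showed no shared direction. At lower coordinates, Fcgr1 (121 kb away), the high-affinity IgG receptor of macrophages, had 16.2, 17.9 and 30.8 TPM in 6-month Terc-/- and 27.9, 15.9 and 27.0 TPM in 6-month wild-type cells, which overlap (log2 -0.27 ± 0.19, adjusted p = 0.299, limma). Bola1, Mtmr11 and Otud7b passed in no genotype comparison, with 6-month differences of 0.19, 0.53 and -0.05. At higher coordinates, Txnip (143 kb away), the thioredoxin-binding protein that limits glucose uptake, had 150, 169 and 146 TPM in 6-month Terc-/- and 173, 75.0 and 76.6 TPM in 6-month wild-type cells (log2 0.49 ± 0.17, adjusted p = 0.0291). Wild-type replicate 1 lies above all 3 Terc-/- libraries as deposited, but not in scaled values (143.5 against 141.6, 155.5 and 144.6). The 1-month difference was -0.09 ± 0.17. Lix1l was called at 1 month (-0.34 ± 0.10, adjusted p = 0.0161), and Polr3gl in no genotype comparison.

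Pairs that share a start region were taken by position, after the values were seen. Of 4 head-to-head pairs with starts within 1000 bases, Rnf115, a ubiquitin ligase, was called at 6 months (0.52 ± 0.15) and Polr3c, a subunit of RNA polymerase III, was not (-0.22 ± 0.09), and Mindy1 was called (0.83 ± 0.11) and Prune1 was not (0.27 ± 0.14). The difference within each pair was not tested. Rnf115 had 43.3, 40.8 and 36.0 TPM in 6-month Terc-/- and 39.3, 12.1 and 33.2 TPM in 6-month wild-type cells, where 12.1 TPM is replicate 2, and the call was lost without it (0.21 ± 0.10). Scnm1 and Lysmd1, and Wdr3 and Gdap2, had no call in any genotype comparison. Whether reads were counted by strand is not stated, so genes that overlap on opposite strands, such as Mindy1 and Prune1, Cers2 and Setdb1, Mllt11 and Cdc42se1, or Txnip and the antisense gene Gm15441, cannot be told apart where they overlap.

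Culture, age and marker were compared in the same fit. In wild-type 6-month mice, 37 of the 82 differed between large cells and 2-day cultures (22 higher, 15 lower), or 45.1% against 49.9% of all genes. Values as deposited lowered the median of all genes there and gave 9 higher and 25 lower. In 20-month mice 24 differed between the cultures (13 higher, 11 lower), or 29.3% against 36.6% of all genes (17% higher, 19.6% lower). The highest at 6 months were Lce1g (1.81 ± 0.39), S100a10 (1.38 ± 0.29), a partner of annexin A2, and Tnfaip8l2 (1.08 ± 0.26). Without wild-type replicate 2 these were 1.32, 0.89 (0.886) and 0.61, and Polr3gl, a subunit of RNA polymerase III, stood above Tnfaip8l2 at 0.84. The lowest with all libraries were Mllt11 (-1.63 ± 0.18), Man1a2 (-1.25 ± 0.21), a Golgi mannosidase, and Tbx15 (-1.16 ± 0.26). Without replicate 2 Man1a2 was at -0.93, and Ecm1 (-1.19) stood below it and Tbx15. At 20 months the highest were Selenbp1 (1.27 ± 0.33), Ciart (1.15 ± 0.28), a repressor in the circadian clock, and Phgdh (1.10 ± 0.30). The lowest there were Txnip (-1.93 ± 0.17), Lce1h (-1.27 ± 0.38) and Mllt11 (-1.11 ± 0.18), with 21.5, 30.1 and 32.3 TPM of Txnip in large cells against 112, 112 and 121 TPM in 2-day cultures.

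Large cells of 20-month against 6-month wild-type mice differed for 27 of the 82 (11 higher, 16 lower), or 32.9% against 27.6% of all genes. Without 6-month replicate 2 the count was 18, or 22% against 17.1% of all genes. Values as deposited raised the median of all genes here and gave 19 higher and 11 lower. Ciart (1.52 ± 0.28), Selenbp1 (1.27 ± 0.33) and Phgdh (1.12 ± 0.30) were the highest, and Lce1g (-3.13 ± 0.39), Lce1h (-2.21 ± 0.38) and Txnip (-2.14 ± 0.17) the lowest. Lce1g had 1.09, 1.07 and 0.956 TPM at 20 months and 8.75, 22.5 and 15.3 TPM at 6 months, and Txnip at 20 months lay below every 6-month library. In unmarked Terc-/- cells, 6 months against 1 month, 5 of the 82 differed (4 higher, 1 lower), or 6.1% against 4.02% of all genes (3% higher, 1.02% lower), namely Lce1h, Lce1f, Tbx15 (1.01 ± 0.26), Adamtsl4 (0.75 ± 0.17) and Zfp697 (-0.57 ± 0.14). Without 6-month Terc-/- replicate 4, 1 of the 82 passed, while 1.78% of all genes did. That library had the highest unmarked 6-month Terc-/- values of Lce1h, Lce1f, Tbx15 and Adamtsl4.

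Between 519-marked and unmarked Terc-/- cells of 6 months, 25 of the 82 differed (15 higher, 10 lower), or 30.5% against 28.3% of all genes. Values as deposited lowered the median of all genes in this comparison and gave 8 higher and 18 lower. Selenbp1 (1.67 ± 0.33), Fcgr1 (1.403 ± 0.19) and Adamtsl4 were the highest, and Pde4dip (-1.42 ± 0.19), Phgdh (-1.30 ± 0.30) and Tent5c (-0.83 ± 0.19) the lowest. Fcgr1 had 38.5, 46.8 and 53.0 TPM in marked against 16.2, 17.9 and 30.8 TPM in unmarked cells, without overlap. The most abundant neighbours were S100a11, at 1275 to 3453 TPM over the 30 libraries, S100a10 (362 to 1121 TPM), Ecm1, a secreted matrix protein (265 to 1084 TPM), Mrps21, a mitochondrial ribosomal protein (250.4 to 917 TPM), and Mcl1 (150.2 to 339 TPM). For S100a10 and Mrps21 the highest library was wild-type 6-month replicate 2.

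**Figure D4:**
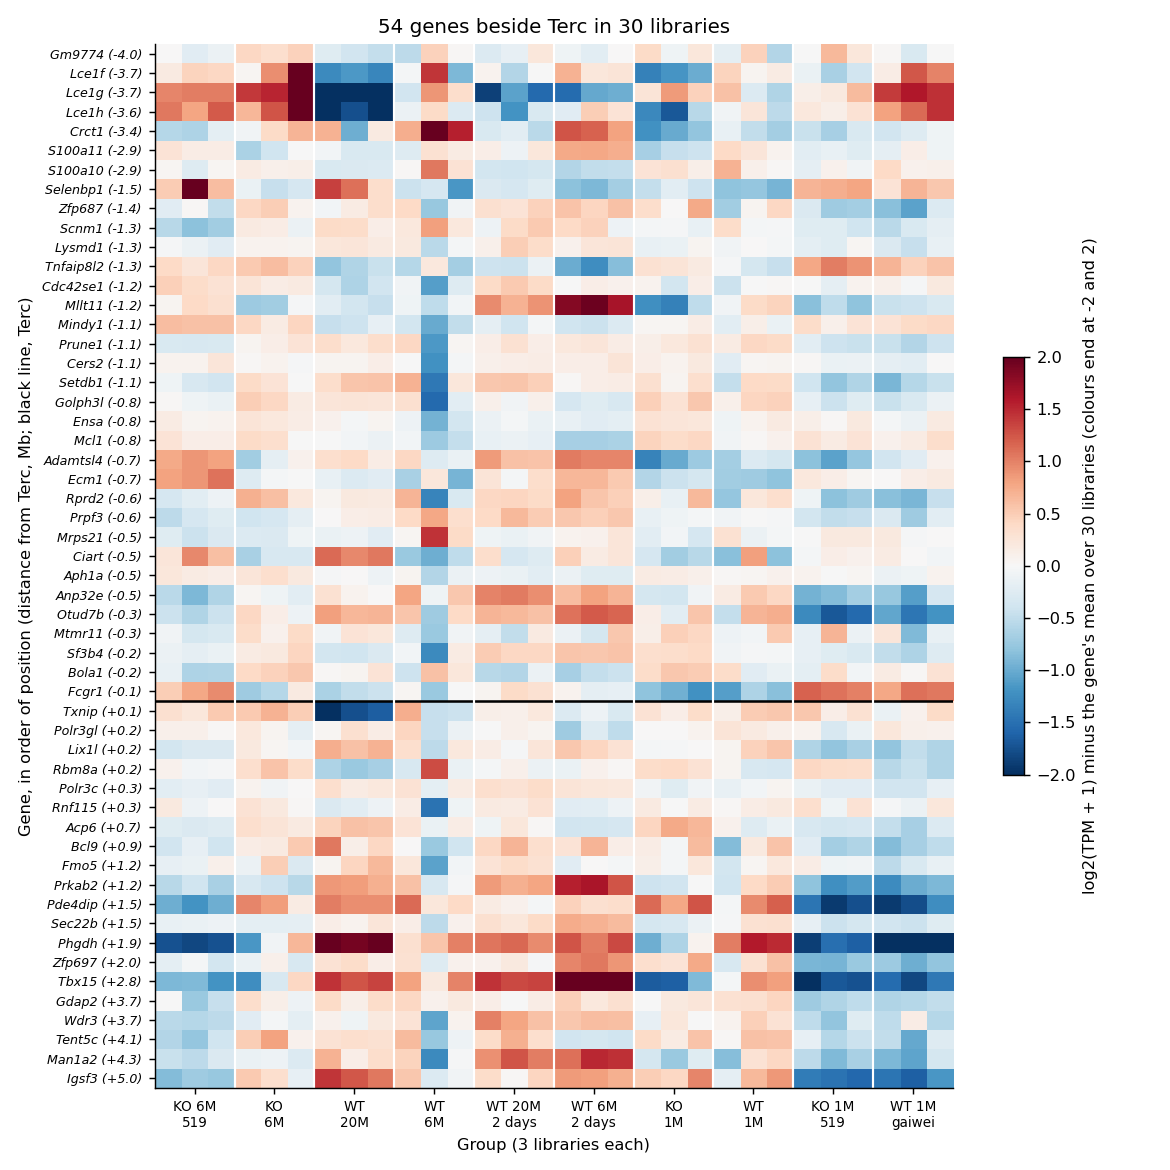
Log2(TPM + 1) of 54 of the 82 genes, in order of position with the distance from Terc in Mb (rows, the black line marking Terc), minus each gene's mean over the 30 libraries, in 10 groups of 3 libraries (columns, KO for Terc-/- and WT for wild type). The genes shown are named in the text, and Pip5k1a, which is also named there, is not shown. Blocks of colour follow groups such as the 519- and gaiwei-marked libraries, and the middle library of the 6-month wild-type large cells stands apart, while no block beside the black line separates KO from WT columns.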

How the data were processed

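Total RNA was sequenced after poly(A) selection, per the labels' protocols. The authors deposited TPM in 5 tables of 45706 genes and 30 libraries. The submitters' processing notes name HTSeq and mm10. Which aligner was used is not stated there. That the values are TPM follows from the deposited columns, each of which sums to the same total. Annotation came from GENCODE M21 (45143 identifiers matched, 563 did not).

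Libraries were brought to a common scale by averaging log ratios after trimming (30% by ratio, 5% by level), coded by hand since no counts were used, and taken as log2(scaled TPM + 1), so changes of low genes are understated. The 12614 genes averaging 1 TPM or more were fitted in limma 3.58.1 (R 4.3.3) with 10 group means, trend and robust settings, and Benjamini-Hochberg adjustment within a comparison at 0.05. Errors are standard errors. Python 3.11.15, pandas 2.3.3 and matplotlib 3.10.9 did the rest. The fit was tested on simulated data.

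Named genes were the 5 nearest to Terc on each side, the 10 highest and 10 lowest called in the mean genotype difference, those called the same way in every genotype comparison, without overlap or in an interaction (at most 5 each way), the 3 highest and lowest elsewhere, up to 4 per role list, the 5 most abundant and those at the rule's edges; genes called the same way at 6 months and 1 month, unmarked genes without overlap and head-to-head pairs were named after their values were seen. The genes and lists were chosen with earlier results of these data known. Some genes that this rule names are not reported here. Replicate numbers were not used to pair the samples in the main fit.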

Additional observations from a re-analysis of the deposited data

Results flagged for a closer look

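The genotype difference itself was tested for change between settings. Between 6 months and 1 month (6-month difference minus 1-month difference, log2) 5 of the 82 genes passed (limma, Benjamini-Hochberg). They were Lce1h (2.37), Pip5k1a (0.66), Mindy1 (0.65), Acp6 (-0.72) and Prpf3 (-0.92). With values as deposited 3 were higher and 1 lower, against 3 and 2. Leaving out 1 library at a time gave 1 (without 1-month wild-type replicate 3) to 13 (without 6-month wild-type replicate 1), and 4 without 6-month wild-type replicate 2. In the fits with 1 and 13 calls, 2.18% and 12.6% of all genes passed.

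Between marked and unmarked 1-month cells (marked difference minus unmarked difference) 7 passed. They were Phgdh (2.31), Tbx15 (1.64), Mllt11 (0.86), Sec22b (0.41), Mcl1 (-0.44), Acp6 (-0.66) and Lce1g (-1.89). The unmarked difference of Acp6 was 0.75 ± 0.14, with 27.2, 34.6 and 32.1 TPM in Terc-/- and 21.1, 16.4 and 18.2 TPM in wild-type cells, which do not overlap. The unmarked wild-type libraries had the female Xist pattern and more collagen RNA than the Terc-/- ones, with Dcn and Lum the other way, and the part of either was not tested.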

How the results depend on the processing

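Counts of the 82 genes called, which show how calls move and do not compare these genes with all genes, were recomputed under each setting. With only the groups compared in the fit they were 0 at 6 months, 7 at 1 month, 4 in marked cells, 16 in the mean, 0 for the 6- minus 1-month difference, 11 and 40 for large cells against 2 days at 6 and 20 months, 4 for 20 against 6 months and 1 for 6 against 1 month in Terc-/-. The cause was not tested. Without replicate 2 of the 6-month wild type as well, 6 were called at 6 months. Values as deposited gave 2 in marked cells, and no filter gave 2 and 4 for the differences of 6 minus 1 month and marked minus unmarked. The mean of the 6-month and marked comparisons alone gave 15, with or without that replicate. Median-ratio scaling gave 1 gene without overlap of genotypes and unmarked libraries alone 3. A window of 10 Mb held 212 genes and one of 2 Mb 63.

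Leaving out each replicate gave 15 to 41 calls at 6 months (fewest without Terc-/- replicate 1, most without wild-type replicate 1, and 6 with only the groups compared), 9 to 21 at 1 month (fewest without wild-type replicate 3), 1 throughout in marked cells (24 at 1 month and 4 in marked cells without 6-month wild-type replicate 2, which is in neither pair) and 21 to 40 in the mean (most without 6-month wild-type replicate 1, with 15 over the 6-month and marked comparisons). At the low and high ends of these ranges, 19.1% and 41.9% of all genes passed at 6 months. The same shares were 22.9% and 33.1% at 1 month, and 36.3% and 43.8% in the mean. In the marked comparison 2.08% passed without 519-marked 1-month replicate 1. Leaving out replicates gave 1 to 13 for 6 minus 1 month (2.18% and 12.6% of all genes) and 3 to 9 for marked minus unmarked (7.9% and 14.1%). For large cells against 2 days it gave 28 to 44 at 6 months (40.4% and 59.2%) and 18 to 19 at 20 months (30.1% and 30.8%). For 20 against 6 months it gave 18 to 47 (17.1% and 50.3%), most without 6-month replicate 1. It gave 1 to 9 for 6 against 1 month (1.78% and 6.29%), fewest without 6-month Terc-/- replicate 4. It gave 20 to 23 for 519-marked against unmarked (22.0% and 23.7%), and 0 throughout without overlap. Of 103 called values named, 40 passed throughout, 61 were lost in at least 1 setting, 39 without at least 1 replicate, and 0 changed sign.

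Correlations of same-numbered replicates were between -0.33 and 0.29 in the genotype comparisons. With 3 libraries a group these values cannot decide whether the numbers pair the samples, and the main fit used no pairing. With a replicate block 28, 15, 1 and 26 genes were called at 6 months, 1 month, in marked cells and in the mean. Values as deposited moved the median of all genes by -0.36 between large cells and 2 days at 6 months, 0.27 between 20 and 6 months, -0.26 with the 519 marker and 0.13 between genotypes at 6 months. For 6 against 1 month in Terc-/- they gave 5 higher and 0 lower, against 4 and 1. TPM carry no depth, so the precision of low genes is unknown.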
